A study of Mus musculus with 29 samples.

Results

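Potassium channel genes whose symbols start with Kcn were followed in 2 regions of the mouse brain, the prefrontal cortex (PFC) and the caudate-putamen (CPu). Probe sets that carry a single gene symbol starting with Kcn were taken from the array table, 90 of 22626 probe sets tested. Where a gene had several, its strongest probe set on average across the 29 arrays stood for it. This gave 62 genes of the 12393 with a single symbol, and all 62 were tested with no filter on low signal. They fall into 7 families: 14 voltage-gated (Kv) pore subunits, 2 modulatory Kv subunits, 4 EAG, ERG and ELK channels, 12 auxiliary and interacting proteins, 9 calcium- and sodium-activated channels and their subunits, 13 inward rectifiers and 8 tandem-pore leak channels.

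RNA came from mice of the parent strain FVB/N and of a pair of transgenic lines made on it, TgS, which expresses human AChE-S, and TgR, which expresses human AChE-R. AChE is acetylcholinesterase, the enzyme that breaks down acetylcholine, and S and R are splice variants of it. MPTP, a compound that is converted in the brain to a toxin of dopamine cells, was given as 4 injections of 20 mg/kg, 2 h apart, and tissue was taken 4 days later. After MPTP there were 2 PFC arrays of each strain, 2 CPu arrays of TgS, 1 of TgR and 2 of FVB/N. Naive mice gave 4 PFC arrays and 2 CPu arrays of each strain. Not given in the sources used here are the transgenes' promoter, the age and sex of the mice and how many mice each array holds. The labels do not say that arrays came from separate animals, so p measures only the spread between these arrays.

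Potassium channels let potassium leave the cell, which repolarises the membrane after an action potential and sets the resting potential. Kv channels are tetramers of pore subunits that beta subunits, KChIP proteins and Kcne peptides modify. Inward rectifiers pass current near rest, some of them only when G proteins or a fall in ATP open them, and leak channels pass it with little voltage dependence. Striatal projection neurons are known for strong potassium currents that hold them at a negative resting potential between bouts of cortical input.

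Values are log2 signals of probe sets as deposited, so a difference of 1 means a doubling of signal. All tests are limma's moderated tests from a single model, adjusted over the 22626 probe sets, and a gene is called when its adjusted p is below 0.05. The 6 naive PFC arrays numbered 1 and 2 stood apart. The Y-linked gene Eif2s3y read 3.42 to 3.83 in them, against 8.41 to 9.20 in the other 23 arrays, and Xist read 8.62 to 10.61, against 6.78 to 7.24. Kdm5d, also Y-linked, read 3.58 to 4.32 in them and 7.2 to 7.76 in the others. These genes mark replicates 1 and 2 as female RNA and the other arrays as male, although no label gives the sex. Comparisons of replicates 1 and 2 with other arrays thus also differ in sex. Replicates 1 and 2 were left out of the model. Naive PFC therefore means replicates 3 and 4 (6 arrays) unless replicates 1 and 2 are named. In the arrays of the model, the tissue labels were borne out by their markers. The dopamine receptor gene Drd2 read 6.25 to 6.69 in those PFC arrays and 10.74 to 11.43 in the CPu. The cortical gene Neurod6 read 9.57 to 10.75 in those PFC arrays and 5.12 to 8.37 in the CPu. In naive PFC replicates 1 and 2, Drd2 was higher, at 6.97 to 8.16, and Neurod6 read 9.66 to 10.53. The striatal gene Ppp1r1b read 9.13 to 10.35 in them, and 9.09 to 9.20 in replicates 3 and 4. The part of this in comparisons with replicates 1 and 2 was not tested. Naive FVB/N CPu replicate 2 is described as MPTP-exposed in 1 label field and as naive in the others, and was kept as naive. Lcn2, which read 6.35 to 9.81 in the CPu arrays after MPTP, read 4.79 in it.

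In naive mice, the G protein-gated inward rectifier genes Kcnj3 and Kcnj9 and the calcium-activated channel subunit gene Kcnmb4 had more signal in the PFC, and the Kv pore gene Kcna5 and the beta subunit gene Kcnab1 had more in the CPu. Of the 62 genes, 27 were called higher and 17 lower in the PFC (44 in all, or 71.0%). Over all probe sets 53.2% were called, 23.8% higher and 29.4% lower. The signal differed by more than 1 log2 unit for 8 of the 62 genes, and for 2.55% of all probe sets. In 24 genes the 6 PFC arrays and the 6 CPu arrays did not overlap (38.7%, against 22.8% of all probe sets). The median difference was 0.06 for the 62 genes and -0.01 for all probe sets. In tissue RNA, fewer cells of a type and less RNA per cell cannot be told apart.

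**Figure D1:**
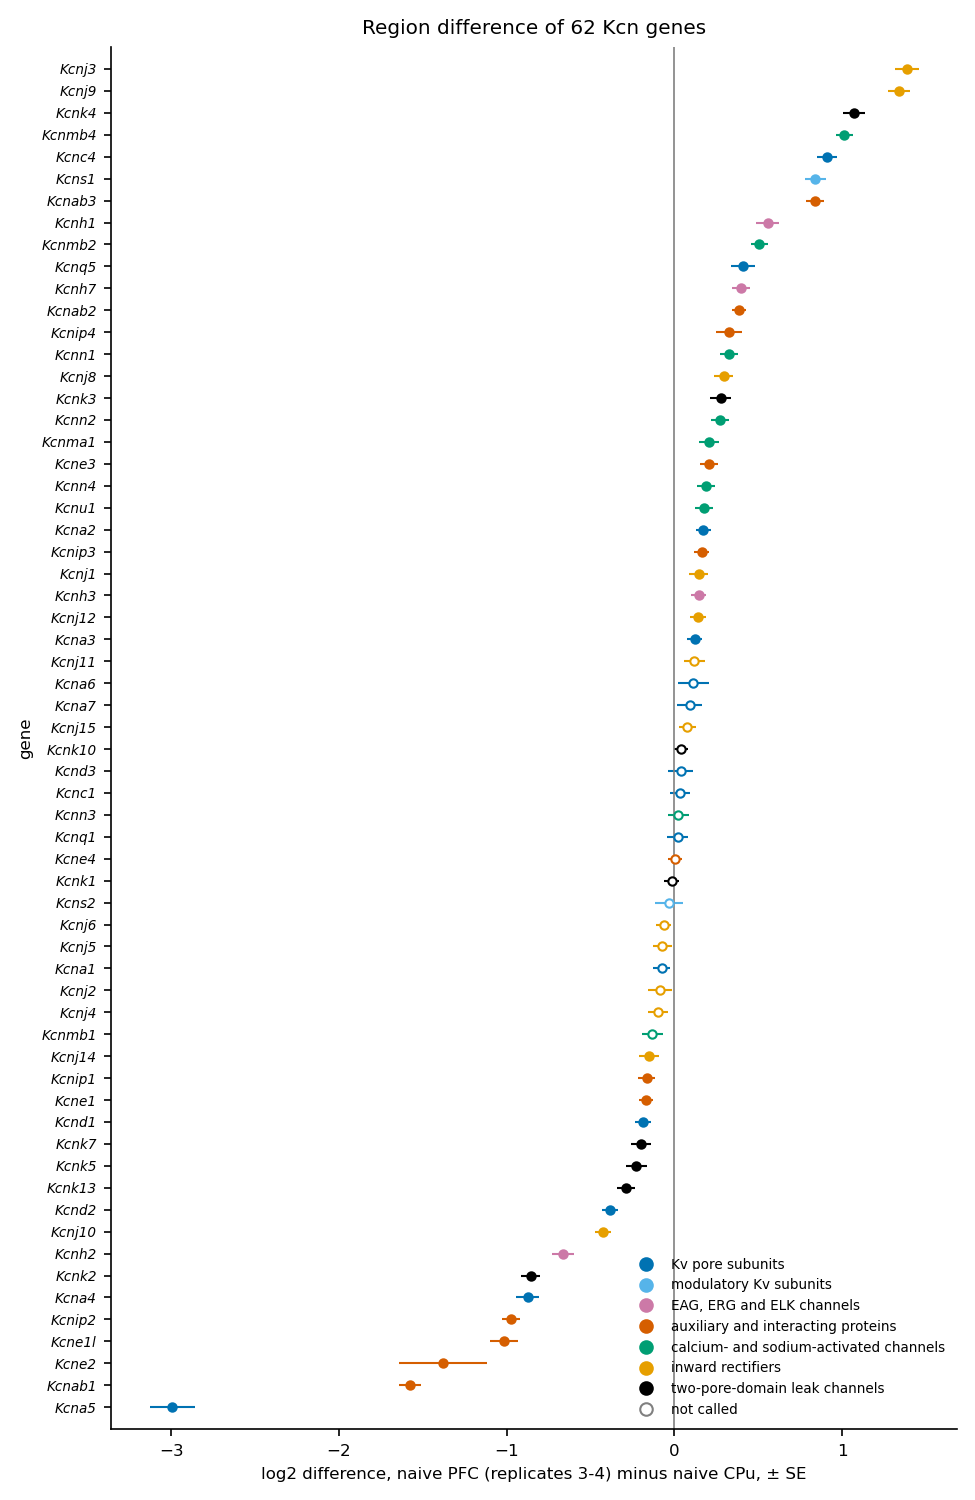
Log2 difference (± SE) of naive PFC minus naive CPu for the 62 Kcn genes, coloured by family, with filled points for called genes. Kcnj3 (1.39) and Kcnj9 (1.34) stand at the upper end and Kcna5 (-2.995) stands apart at the lower end.

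Among Kv pore subunits, 4 of 14 were higher and 4 lower in the PFC. Kcna5 encodes a Shaker-type pore subunit best known from heart and vascular muscle. It read 5.26 to 6.27 (median 5.53) in the 6 naive PFC arrays and 8.32 to 8.83 (median 8.65) in the 6 naive CPu arrays. The lowest CPu array lay above the highest PFC array, and the difference of -2.995 ± 0.13 (SE, adjusted p = 1.97e-11) made its signal 7.97-fold lower in the PFC. Kcna4, the pore of a fast inactivating A-type channel, read 6.99 to 7.39 (median 7.30) in the PFC and 7.98 to 8.25 (median 8.15) in the CPu, a difference of -0.88 ± 0.07 (adjusted p = 1.41e-08) with no overlap. Kcnd2, the main somatodendritic A-type pore, was lower in the PFC by a smaller step (-0.38 ± 0.05, adjusted p = 3.7e-06), as was Kcnd1 (-0.19). On the other side stood Kcnc4, a Shaw-type subunit, at 10.33 to 10.65 (median 10.47) in the PFC and 9.36 to 9.82 (median 9.53) in the CPu (0.91 ± 0.06, adjusted p = 2.93e-09). Kcnq5, a subunit of the M-current that acetylcholine shuts, was higher by 0.41 ± 0.07 (adjusted p = 0.000123) with overlapping arrays, and differed by -0.03 (not called) with naive PFC replicates 1 and 2. Kcna2 and Kcna3 were higher by 0.17 and 0.12.

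Promoter letters are shown for the pore genes with the largest differences between regions, Kcnj3 and Kcnj9 higher and Kcna5 and Kcna4 lower in the PFC, as the 250 bases before the RefSeq transcription start on GRCm38.p6, in lower case with motif matches in capitals.
Kcnj3, chr2:55435720-55435969 (plus strand): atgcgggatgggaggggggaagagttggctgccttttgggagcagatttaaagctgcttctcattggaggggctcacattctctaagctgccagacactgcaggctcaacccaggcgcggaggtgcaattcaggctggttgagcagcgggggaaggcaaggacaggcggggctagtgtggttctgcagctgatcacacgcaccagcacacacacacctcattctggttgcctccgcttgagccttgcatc
Kcnj9, chr1:172329323-172329572 (minus strand): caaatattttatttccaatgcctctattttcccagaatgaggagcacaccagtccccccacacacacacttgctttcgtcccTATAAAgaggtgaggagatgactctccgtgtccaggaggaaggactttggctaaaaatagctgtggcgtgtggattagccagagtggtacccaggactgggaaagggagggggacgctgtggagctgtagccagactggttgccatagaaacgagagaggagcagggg
Kcna5, chr6:126535556-126535805 (minus strand): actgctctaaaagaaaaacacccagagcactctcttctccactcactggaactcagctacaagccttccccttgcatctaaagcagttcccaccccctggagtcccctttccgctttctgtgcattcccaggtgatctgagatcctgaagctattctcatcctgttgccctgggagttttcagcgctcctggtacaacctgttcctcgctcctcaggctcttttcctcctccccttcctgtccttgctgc
Kcna4, chr2:107290339-107290588 (plus strand): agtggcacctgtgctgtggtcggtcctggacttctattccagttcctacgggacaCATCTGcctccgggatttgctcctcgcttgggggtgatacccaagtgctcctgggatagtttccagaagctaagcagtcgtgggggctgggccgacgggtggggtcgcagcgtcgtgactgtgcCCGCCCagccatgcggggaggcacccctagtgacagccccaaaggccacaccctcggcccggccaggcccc
The letters searched on both strands were TATAAA for a core promoter box, GGGCGG for a GC box, TGACGTCA for a cAMP response element and CAGATG for an E-box, along with the AP-1 site. The Kcnj9 window holds TATAAA 168 bases before the start, and the Kcna4 window holds CAGATG 195 bases and GGGCGG 71 bases before it, both on the opposite strand. The Kcnj3 and Kcna5 windows hold none of these letters. Of 32851 windows of the same length, 12.4% hold TATAAA, 32.7% GGGCGG, 1.55% TGACGTCA, 6.75% the AP-1 site and 14.4% CAGATG. The Kcna4 window has 65.2% G and C with 14 CpG dinucleotides, against medians of 52.4% and 6 over all windows, and the Kcna5 window has 53.2% with 3. A RefSeq window was found for 50 of the 62 genes. A match describes letters and shows no binding.

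Of the modulatory Kv subunits, which form channels only together with other subunits, Kcns1 was higher in the PFC (0.84 ± 0.06, adjusted p = 9.13e-09) and Kcns2 did not pass (-0.03 ± 0.08). Of the EAG, ERG and ELK channels, Kcnh1, Kcnh7 and Kcnh3 were higher (0.56, 0.40 and 0.14) and Kcnh2, the ERG channel that also carries a cardiac repolarising current, was lower. Kcnh2 read 8.46 to 8.95 (median 8.68) in the naive PFC and 9.11 to 9.68 (median 9.33) in the naive CPu (-0.66 ± 0.07, adjusted p = 3.67e-07), with no overlap. With naive PFC replicates 1 and 2, which read 9.37 to 9.66 (median 9.54), its difference was 0.18 (adjusted p = 0.0269), so its direction rests on which naive PFC arrays are used.

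Auxiliary and interacting proteins were called in 11 of 12 cases, 5 higher and 6 lower in the PFC, and the beta subunit genes did not move together. Kcnab1 read 10.15 to 10.65 (median 10.46) in the PFC and 11.81 to 12.24 (median 11.98) in the CPu. Its arrays did not overlap, and its signal was 2.98-fold lower in the PFC (-1.58 ± 0.06, adjusted p = 6.9e-12). Kcnab3 and Kcnab2 were higher, by 0.84 ± 0.05 (adjusted p = 1.93e-09) and 0.39 ± 0.04 (adjusted p = 8.29e-07), again with no overlap. Kcnab1 and Kcnab3 therefore differed between the regions in opposite directions. Kcnip2, a KChIP that binds Kcnd pores and speeds their trafficking, was 1.96-fold lower in the PFC (-0.97 ± 0.05, adjusted p = 2.34e-10), while Kcnip4 and Kcnip3 were higher by 0.32 and 0.16. Among the single-span Kcne peptides, Kcne1l had a difference of -1.02 ± 0.08 (adjusted p = 3.43e-08) and Kcne3 was higher by 0.21.

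Kcne2, which is known from choroid plexus epithelium, read 4.76 to 5.08 (median 4.87) in the naive PFC and 5.19 to 7.42 (median 6.32) in the naive CPu (-1.38 ± 0.26, adjusted p = 0.000325). Its CPu arrays were spread wide: the TgS arrays read 7.06 and 7.00, the TgR arrays 5.19 and 5.24 and the FVB/N arrays 5.63 and 7.42. Of 8 measured choroid plexus and ependymal genes, 7 were lower in the PFC (median -1.69), and their mean signal ran from 5.68 to 5.93 in the naive PFC and from 6.84 to 8.40 in the naive CPu. The CPu arrays with the most Kcne2 were those with the highest list mean (8.25 to 8.40 in the TgS arrays and in FVB/N replicate 2), and the TgR arrays had 6.84 and 6.98. After MPTP, Kcne2 reached 6.84 in 1 FVB/N CPu array, whose list mean was 8.14, and 5.01 to 5.59 in the other CPu arrays, whose list means were 6.66 to 7.49. How much of the Kcne2 difference these genes account for was not tested.

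**Figure D2:**
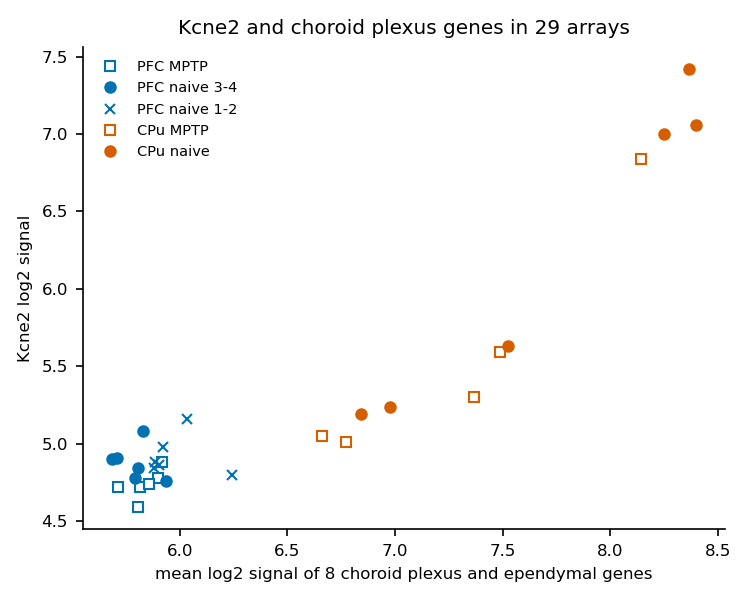
Kcne2 signal (log2) of each of the 29 arrays against the mean log2 signal of 8 choroid plexus and ependymal genes, open squares MPTP, filled circles and crosses naive, blue PFC and orange CPu. PFC arrays lie at 4.59 to 5.16 for Kcne2, and the 4 CPu arrays at or above 6.84 are those with a list mean of 8.14 or more.

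Calcium- and sodium-activated channels had 7 of 9 genes higher in the PFC and none lower. Kcnmb4, the neuronal beta subunit of the large-conductance (BK) channel, read 10.83 to 11.03 (median 10.90) in the PFC and 9.69 to 10.20 (median 9.88) in the CPu (1.01 ± 0.05, adjusted p = 7.97e-11), a 2.02-fold difference with no overlap. Kcnmb2, another BK beta subunit, was higher by 0.51 ± 0.05 (adjusted p = 2.3e-07). The BK pore gene Kcnma1 and the small-conductance genes Kcnn1 and Kcnn2 were higher by 0.21, 0.32 and 0.27, with overlapping arrays. With naive PFC replicates 1 and 2, Kcnn2 was called the other way (-0.24, adjusted p = 0.00137). Kcnn4 was higher by 0.19. Kcnn3 (0.02 ± 0.06) and Kcnmb1 (-0.13 ± 0.06) did not pass, which counts at this number of arrays as no call and not as equality.

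Inward rectifiers were higher in 5 and lower in 2 of 13 cases. Kcnj3 and Kcnj9 encode subunits of the G protein-gated channels that slow neurons after GABA-B, muscarinic or dopamine receptor activation. Kcnj3 read 8.68 to 9.30 (median 9.12) in the PFC and 7.50 to 7.86 (median 7.64) in the CPu, 2.61-fold higher (1.39 ± 0.07, adjusted p = 9.13e-11). Kcnj9 read 8.49 to 8.79 (median 8.69) in the PFC and 7.09 to 7.53 (median 7.34) in the CPu, 2.53-fold higher (1.34 ± 0.06, adjusted p = 4.85e-11). No array of either gene overlapped between regions. The partner subunits did not show it: Kcnj6 differed by -0.06 ± 0.05 and Kcnj5 by -0.07 ± 0.06, neither called. Kcnj6 has further probe sets, and those read 0.37 and 0.40 higher, -0.18 lower and 0.08 apart, so its regional direction depends on the probe set. Kcnj10, the potassium buffering channel of astrocytes, was lower in the PFC (-0.43 ± 0.05, adjusted p = 1.81e-06), and 7 of 12 astrocyte markers were lower and 1 higher. Kcnj8, the pore of vascular ATP-sensitive channels, was higher (0.29 ± 0.06, adjusted p = 0.000376), while 10 of 15 endothelial and mural markers were lower. The part of either cell type in these values was not tested. Kcnj13 of the choroid plexus and Kcnj16 of astrocytes were not analysed here.

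Leak channels were higher in 2 and lower in 4 of 8 cases. Kcnk4 and Kcnk2 encode a pair of related channels opened by membrane stretch and lipids. Kcnk4 read 7.91 to 8.15 (median 8.09) in the PFC and 6.76 to 7.13 (median 7.03) in the CPu (1.07 ± 0.07, adjusted p = 1.06e-09). Kcnk2 read 10.36 to 10.59 (median 10.45) in the PFC and 11.11 to 11.53 (median 11.29) in the CPu (-0.86 ± 0.06, adjusted p = 2.59e-09). Neither overlapped, so these relatives differed in opposite directions. Kcnk3, an acid-sensitive channel, was higher by 0.28, and Kcnk13, which microglia express, had a difference of -0.29 ± 0.06 (adjusted p = 0.00034). Kcnk1 (-0.02 ± 0.04) and Kcnk10 (0.04 ± 0.04) did not pass.

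**Figure D3:**
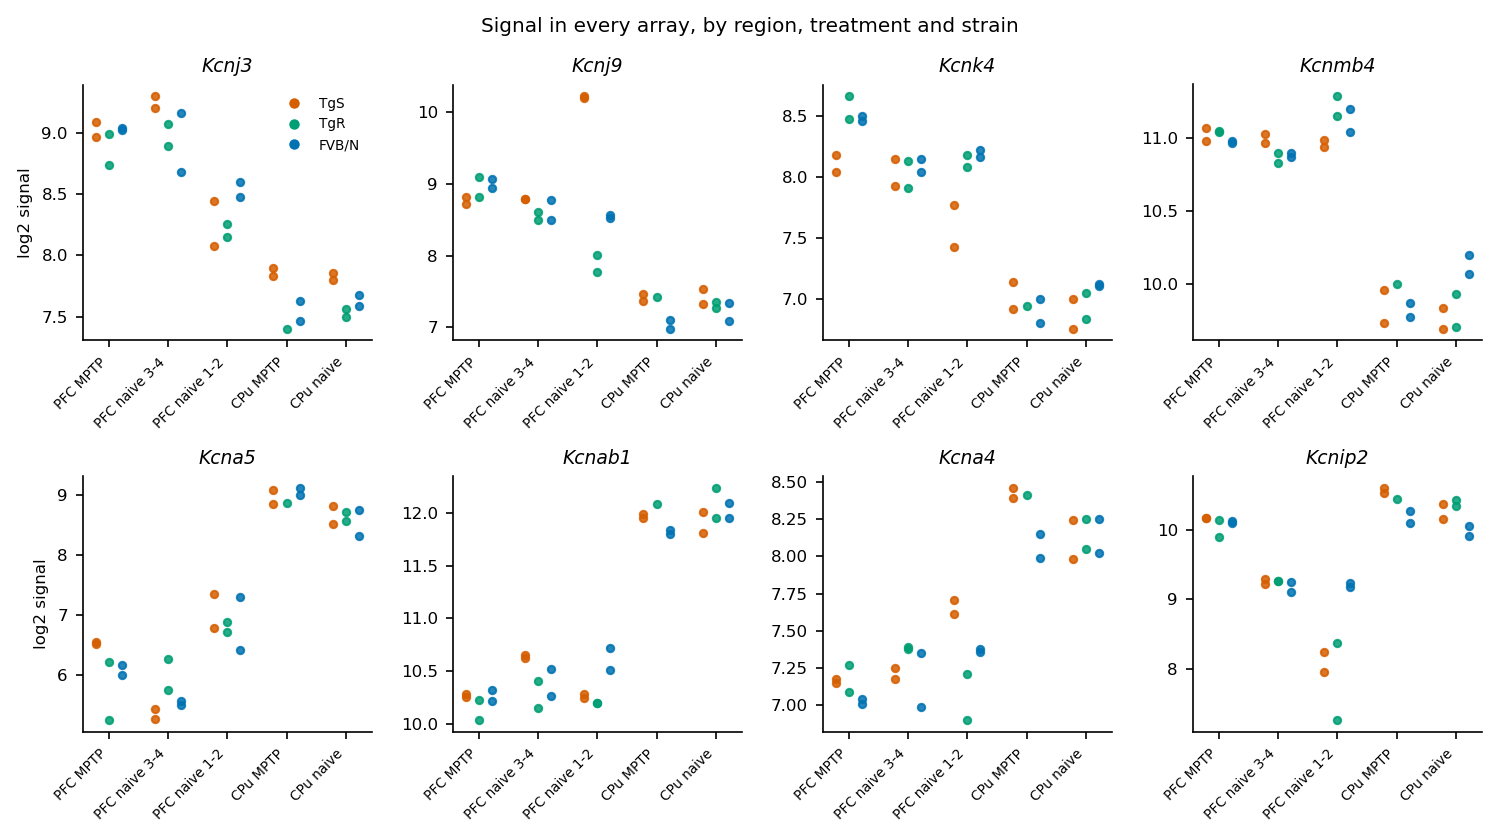
Log2 signal of 8 Kcn genes in each of the 29 arrays, by region and treatment (PFC first) and coloured by strain. The upper 4 genes lie higher in the PFC and the lower 4 lower. Kcnj9 in naive TgS PFC replicates 1 and 2 (10.22 and 10.19) and Kcnip2 in naive TgR PFC replicate 2 (7.27) stand far from the other PFC arrays.

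The same regional question was asked after MPTP, with 6 PFC and 5 CPu arrays that share none of the naive arrays. There 37 genes were called, 21 higher and 16 lower in the PFC (beside 53.9% of all probe sets). In 23 genes the arrays did not overlap (beside 29.9% of all probe sets). The AFFX-BioB-3 hybridisation control read 6.88 to 7.51 on these PFC arrays and 5.82 to 6.61 on these CPu arrays. On the naive arrays of the model it read 6.16 to 6.61 in the PFC and 6.19 to 6.57 in the CPu. After MPTP the control did not overlap between regions, so region and a technical difference cannot be fully separated there. The part of the control in the calls after MPTP was not tested. Used in place of replicates 3 and 4, naive PFC replicates 1 and 2 gave 42 calls against the naive CPu arrays, 27 higher and 15 lower (beside 65% of all probe sets). Higher in the PFC in all 3 settings were 15 genes (beside 9.07% of all probe sets), among them Kcnj3 (1.39, 0.67 and 1.37 for replicates 3 and 4, replicates 1 and 2, and MPTP), Kcnj9 (1.34, 1.56 and 1.61), Kcnk4 (1.07, 0.99 and 1.42), Kcnmb4 (1.01, 1.20 and 1.13) and Kcnc4 (0.91, 1.29 and 1.15). Lower in all 3 were 8 genes (beside 11.2% of all probe sets): Kcna5 (-2.995, -1.71 and -2.86), Kcnab1 (-1.58, -1.65 and -1.74), Kcne2 (-1.38, -1.34 and -0.73), Kcne1l (-1.02, -0.54 and -1.18), Kcnip2 (-0.97, -1.83 and -0.30), Kcna4 (-0.88, -0.77 and -1.18), Kcnk2 (-0.86, -0.83 and -1.01) and Kcnd2 (-0.38, -0.35 and -0.58). Among the genes listed here, the size moved most for Kcnip2. Between the pairs of naive PFC replicates, 3 genes were called in opposite directions (beside 6.37% of all probe sets): Kcnh2, Kcnn2 and Kcnk5 (-0.23 with replicates 3 and 4, 0.19 with 1 and 2). For 6 more (beside 6.13%) the sign turned and the call was lost: Kcnq5, Kcnip4 (0.32 and -0.07), Kcne1, Kcnj14, Kcnk7 and Kcnu1. Between naive mice (replicates 3 and 4) and exposed mice, Kcnip1 (-0.165 and 0.25), Kcna3 (0.12 and -0.17) and Kcnn4 (0.19 and -0.165) were called in opposite directions. The share of all probe sets that did so was not worked out. Of 22 further probe sets of called genes, 15 were called the same way in naive mice, 7 were not called and 0 were called the other way.

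MPTP in the PFC was compared between 6 exposed and 6 naive arrays (replicates 3 and 4). Against these naive arrays Kcnip2 rose most, followed by Kcnj11, Kcnab3, Kcnh2, Kcna5 and Kcnab2, and Kcnn4 and Kcnd2 fell. In all, 34 genes were called, 20 higher and 14 lower, which is 54.8% of the 62 beside 50.5% of all probe sets (28.5% higher, 22% lower), so the share was near that of all probe sets. The groups did not overlap in 10 genes (16.1%, beside 21% of all probe sets). No gene moved by 1 log2 unit. By family, 5 Kv pore genes were higher and 5 lower of 14, 4 and 2 of 12 auxiliary genes, 4 and 2 of 13 inward rectifiers, 3 and 1 of 8 leak channels, and 2 and 3 of 9 calcium- and sodium-activated channels. The AFFX-BioB-3 hybridisation control read 6.88 to 7.51 on the MPTP arrays and 6.16 to 6.61 on the naive arrays, and 10 of 15 endothelial and mural markers were higher after MPTP (median 0.58, array means 7.86 to 8.19 against 7.19 to 7.87). The control did not overlap between these groups, so MPTP and a technical difference between the arrays cannot be fully separated in this comparison. The part of the control and of these markers in the calls was not tested.

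Kcnip2 read 10.17 and 10.17 in the exposed TgS arrays, 10.13 and 9.89 in TgR and 10.12 and 10.10 in FVB/N. Its naive arrays lay between 9.11 and 9.29 (median 9.26), below every exposed array. The rise was 1.82-fold (0.86 ± 0.05, adjusted p = 9e-09), and the gene was called in each strain (0.92 in TgS, 0.74 in TgR and 0.93 in FVB/N). A further Kcnip2 probe set differed by 0.13 (adjusted p = 0.0501). Kcnj11, the pore of the neuronal ATP-sensitive channel, read 6.95 to 7.39 (median 7.05) after MPTP and 6.40 to 6.78 (median 6.56) in naive arrays (0.53 ± 0.06, adjusted p = 5.04e-06), with no overlap. Its regulatory partner gene Abcc8 differed by 0.09 ± 0.07 (adjusted p = 0.325), whereas Abcc9, the partner of the vascular pore, rose by 0.61 ± 0.07 (adjusted p = 3e-06). Kcnj8, that vascular pore, differed by -0.12 ± 0.06 (adjusted p = 0.0897).

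The beta subunit genes parted after MPTP. Kcnab3 read 9.34 to 9.66 (median 9.41) in exposed and 8.74 to 9.08 (median 8.94) in naive arrays (0.52 ± 0.05, adjusted p = 1.7e-06), and Kcnab2 read 11.86 to 11.98 (median 11.93) in exposed and 11.44 to 11.61 (median 11.53) in naive arrays (0.39 ± 0.04, adjusted p = 1.67e-06). Neither overlapped. Kcnab1 fell (-0.22 ± 0.06, adjusted p = 0.0111) with overlapping arrays. Its fall was not called against naive replicates 1 and 2 (-0.14, adjusted p = 0.0521) or on its second probe set (0.02, adjusted p = 0.87). The second probe set of Kcnab3 went the other way (-0.20, adjusted p = 0.0281), and that of Kcnab2 the same way (0.45, adjusted p = 0.000155).

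Kcnn4, an intermediate-conductance calcium-activated channel of blood and immune cells, read 6.71 to 7.00 (median 6.95) after MPTP and 7.05 to 7.36 (median 7.26) in naive arrays (-0.33 ± 0.05, adjusted p = 7.84e-05). Kcnd2 read 10.66 to 10.96 (median 10.85) after MPTP and 11.01 to 11.12 (median 11.10) in naive arrays (-0.25 ± 0.05, adjusted p = 0.000383). Both groups were apart for both genes. Their further probe sets were not called. That of Kcnn4 differed by -0.07 (adjusted p = 0.252), and those of Kcnd2 by -0.07 (adjusted p = 0.484) and -0.09 (adjusted p = 0.492). Kcnj6, the partner of Kcnj3, was also lower without overlap (-0.22 ± 0.05, adjusted p = 0.000584), and of its 4 further probe sets, 1 differed by 0.105 (adjusted p = 0.0758), 1 by -0.08 (adjusted p = 0.269), and the others were called lower (-0.33 and -0.20). Kcnmb2 (-0.24), Kcnq5 (-0.24) and Kcnh7 (-0.22) were lower with overlapping arrays. The second probe set of Kcnmb2 was not called (-0.07, adjusted p = 0.303). Against naive replicates 1 and 2, Kcnmb2 (-0.11, adjusted p = 0.117) and Kcnj6 (-0.13, adjusted p = 0.0725) were not called. There Kcnh7 was called lower (-0.24, adjusted p = 0.00172) and Kcnq5 higher (0.20, adjusted p = 0.0162). Kcnc1, the fast-spiking channel of interneurons, rose by 0.29 ± 0.06 (adjusted p = 0.000789) without overlap, but differed by -0.17 (adjusted p = 0.0813) against naive replicates 1 and 2.

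Against naive PFC replicates 1 and 2, 44 genes were called, 16 higher and 28 lower (beside 66.1% of all probe sets). The hybridisation control read 6.90 to 7.56 on these naive arrays. Their Drd2 signal was 6.97 to 8.16, against 6.25 to 6.69 in the other PFC arrays. Both comparisons use the same exposed arrays, so the 2 sets of values are given side by side. Higher in both were 8 genes (beside 14% of all probe sets): Kcnip2 (0.86 and 1.72 for replicates 3 and 4 and for 1 and 2), Kcnj11 (0.53 and 0.49), Kcnab3 (0.52 and 0.70), Kcnab2 (0.39 and 0.11), Kcnk4 (0.33 and 0.41), Kcnj4, Kcns1 and Kcnu1. Lower in both were 8 (15.9%): Kcnn4 (-0.33 and -0.31), Kcnd2 (-0.25 and -0.28), Kcna3, Kcna2, Kcnk2, Kcna7, Kcne3 and Kcnh7. Called in opposite directions were 8 (6.25%), with Kcna5 at 0.49 and -0.79, Kcnh2 at 0.50 and -0.35, Kcnk3 at 0.25 and -0.49 and Kcna1 at 0.15 and -0.83 among them, so that these directions depend on the naive arrays. For Kcna1 the naive TgS arrays 1 and 2 read 10.73 and 11.05, while the naive TgR and FVB/N arrays 1 and 2 (6.95 to 7.19) lay below all exposed arrays (7.34 to 7.63). The other members of this set were Kcnc4, Kcnk5, Kcnn1 and Kcnq5. Called only against replicates 3 and 4 were 10 genes (14.4%), only against replicates 1 and 2 were 20 (30%), and 8 were called in neither (19.5%). Among the 10, Kcnc1, Kcne1 and Kcnj10 had the other sign against replicates 1 and 2.

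**Figure D4:**
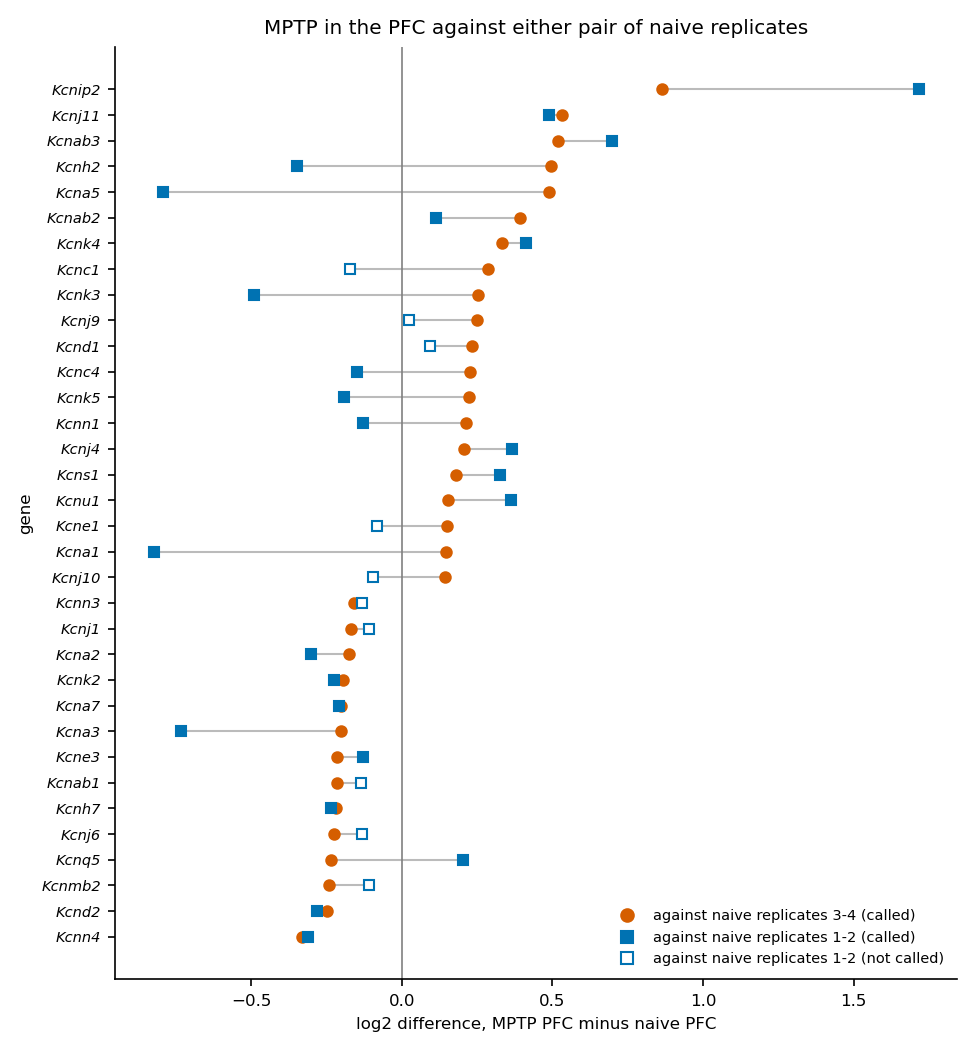
Log2 difference of MPTP PFC minus naive PFC for the 34 genes called against naive replicates 3 and 4 (circles), with the same genes against naive replicates 1 and 2 (squares, open where not called). Kcnip2 (0.86 and 1.72) lies to the right on both, and Kcna5 (0.49 and -0.79) and Kcna1 (0.15 and -0.83) change sides.

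Several members set the naive TgS PFC replicates 1 and 2 apart from every other array. Kcna1, an axonal Shaker pore gene, read 10.73 and 11.05 there, against 6.95 to 7.66 in the rest. Kcna3 read 7.11 and 7.49, against 5.34 to 5.82, and Kcnma1 read 9.81 and 10.75, against 7.69 to 8.21. Kcnj9 read 10.22 and 10.19, against 6.98 to 9.09. These values are given as a description of the arrays that were left out of the model.

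Within strains, with 2 arrays on each side, MPTP called 19 genes in TgS PFC (beside 37.1% of all probe sets), 16 in TgR (22.5%) and 11 in FVB/N (18.9%). Kcnip2, Kcnab3 and Kcnab2 were called higher in each. The test of the difference between strains called 0 of the 62 genes in the PFC, both for TgS against FVB/N (beside 0.645% of all probe sets) and for TgR against FVB/N (0.0707%). At an unadjusted p below 0.05 these tests picked 9 and 3 genes, beside 3565 and 2105 of all probe sets. Kcna5, for example, was higher by 1.19 ± 0.23 in TgS (adjusted p = 0.00093) and was called in no other strain, which does not show that the strains differed.

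MPTP in the CPu was compared between 5 exposed and 6 naive arrays, and 3 of the 62 genes were called, beside 4.54% of all probe sets. Kcnj8 read 7.06 and 7.05 in the exposed TgS arrays, 6.82 in TgR and 6.8 and 7.05 in FVB/N, against 6.38 to 6.76 (median 6.63) in the naive arrays. Every exposed array lay above every naive array (0.32 ± 0.06, adjusted p = 0.00689). Kcnip4 read 8.89 to 9.38 in exposed and 9.23 to 9.79 (median 9.51) in naive arrays (-0.37 ± 0.08, adjusted p = 0.0185), and Kcnip1 read 8.64 to 9.74 in exposed and 9.24 to 9.68 (median 9.49) in naive arrays (-0.31 ± 0.05, adjusted p = 0.00387). Both of these KChIP genes overlapped. Without the only exposed TgR array, Kcnip1 stood at -0.12 and Kcnip4 at -0.285, and neither was called. Kcnj8, Kcna5 (0.35 ± 0.14, adjusted p = 0.187) and Kcnu1 (0.19 ± 0.06, adjusted p = 0.0815) were the 3 genes without overlap, beside 1.63% of all probe sets. Of 11 microglial markers 9 rose (median 0.40, array means 9.42 to 9.80 after MPTP and 8.995 to 9.29 in naive arrays), and their part in the Kcnj8 rise was not tested.

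Both naive TgS CPu arrays had the highest thalamic marker means of the CPu, 7.51 and 7.87, against 6.75 to 7.35 in the other CPu arrays. Without them, limma called 0 of the 62 genes and 111 probe sets in all after MPTP in the CPu. Of the 62, 6 had an unadjusted p below 0.05, with no such count given here for all probe sets. Kcnj8 then stood at 0.28 (adjusted p = 0.162), Kcnip4 at -0.31 (adjusted p = 0.266) and Kcnip1 at -0.28 (adjusted p = 0.0708). Within strains, 4 genes were called in TgS (beside 3.78% of all probe sets), 1 in TgR (0.495%) and 0 in FVB/N (0.676%, with 10 genes at an unadjusted p below 0.05). Over all probe sets, 2438 had an unadjusted p below 0.05 in FVB/N. The TgS genes were Kcnj8 (0.41 ± 0.10), Kcnj10 (-0.38 ± 0.08), Kcnip1 (-0.38 ± 0.09) and Kcnip4 (-0.50 ± 0.13).

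The MPTP difference itself was called as unequal between PFC and CPu for 24 genes, 13 more positive in the PFC and 11 more negative (beside 32.5% of all probe sets). With naive PFC replicates 1 and 2 it was 29 genes, 11 more positive and 18 more negative (beside 51.4% of all probe sets). Kcnip2 had a PFC minus CPu difference of 0.68 ± 0.08 (adjusted p = 2.55e-05), and 1.53 with replicates 1 and 2. Kcnab3 differed by 0.47, and by 0.65 with replicates 1 and 2. Kcnh2 differed by 0.66 ± 0.10 (adjusted p = 0.000196), but by -0.185 (adjusted p = 0.128) with replicates 1 and 2, and Kcnab2 by 0.35, but by 0.07 (adjusted p = 0.333). Kcnj8 ran the other way (-0.44 ± 0.08, adjusted p = 0.00112), and was called after MPTP in the CPu and not in the PFC. Without both naive TgS CPu arrays 13 genes were called, with no share of all probe sets given here for that setting. The AFFX-BioB-3 hybridisation control read 6.88 to 7.51 (exposed) and 6.16 to 6.61 (naive replicates 3 and 4) in the PFC. In the CPu it read 5.82 to 6.61 (exposed) and 6.19 to 6.57 (naive). In the PFC the control did not overlap between exposed and naive arrays, so MPTP and a technical difference cannot be fully separated there. The part of the control in these calls was not tested.

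Strains were compared over region and treatment together, with each of the 4 settings weighted equally. TgS differed from FVB/N in 7 genes (beside 11.6% of all probe sets). Kcne1l, whose product is a single-span peptide that dampens Kcnq1 current, was lower in TgS (-0.31 ± 0.07, adjusted p = 0.0116). In the CPu it read 7.36 and 7.27 in exposed and 7.58 and 7.54 in naive TgS arrays, against 7.89 and 7.78 in exposed and 7.86 and 7.77 in naive FVB/N arrays. Those did not overlap, whereas in the PFC the TgS arrays (6.13 to 6.53) overlapped with the FVB/N arrays (6.44 to 6.99). Kcnab3 was higher in TgS (0.25 ± 0.05, adjusted p = 0.0026), at 8.28 to 8.46 over the CPu arrays, against 7.99 to 8.13 in FVB/N. The others were Kcns2 (0.24), Kcnh1 (0.22), Kcnj3 (0.21), Kcnip2 (0.20) and Kcnc1 (0.18), all higher in TgS. Without both naive TgS CPu arrays 2 genes were called (the share of all probe sets is not given here), and Kcnab3 stood at 0.19 (adjusted p = 0.0577). The second probe set of Kcnab3 differed by -0.04 (adjusted p = 0.749). Further probe sets of genes outside these 7 were called higher in TgS. They belong to Kcnab2 (0.50, adjusted p = 8.84e-05), Kcnab1 (0.33, adjusted p = 0.0168), Kcnip3 (0.29, adjusted p = 0.0062) and Kcnj9 (0.28, adjusted p = 0.0285). The other further probe sets were not called, so which genes are listed depends on the probe set.

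TgS differed from TgR in 8 genes (beside 17.9% of all probe sets). Kcne1l was lower in TgS (-0.51 ± 0.08, adjusted p = 0.000249). In the CPu all TgS arrays (7.27 to 7.58) lay below the TgR arrays, which read 8.0 after MPTP and 7.85 and 7.87 when naive. In the PFC all TgS arrays (6.13 to 6.53) likewise lay below the TgR arrays (6.73 to 7.18). Kcnj4, a strong inward rectifier, was lower in TgS (-0.28 ± 0.05, adjusted p = 0.00209). Kcnab3 and Kcnj3 (0.30 each, adjusted p = 0.000638 and 0.00411), Kcna6 (0.30), Kcnip4 (0.25), Kcns2 (0.23) and Kcnc1 (0.21) were higher in TgS. Kcne1l, Kcnab3, Kcnj3, Kcns2 and Kcnc1 were called for TgS against either strain. The comparisons share the TgS arrays.

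TgR differed from FVB/N in 1 gene, Kcnip1 (-0.23 ± 0.05, adjusted p = 0.00977), beside 4.73% of all probe sets. Kcnip1 read 8.64 in the only exposed TgR CPu array, against 9.59 and 9.74 in the exposed FVB/N CPu arrays, while in the PFC after MPTP the strains read 9.44 and 9.46 in TgR and 9.44 and 9.38 in FVB/N. Without the exposed TgR CPu array the difference was 0.03 (adjusted p = 0.858). The next genes did not pass: Kcnip2 differed by 0.16 (adjusted p = 0.0706) and Kcna4 by 0.18. The Kcnip1 difference between TgR and FVB/N was unequal between regions (0.76 ± 0.09, adjusted p = 0.00163), and so was its MPTP difference in the CPu between TgR and FVB/N (-0.83 ± 0.14, adjusted p = 0.00971, beside 0.588% of all probe sets) and between TgS and FVB/N (-0.52 ± 0.12, adjusted p = 0.049, beside 1.42%). The exposed TgS CPu arrays read 9.28 and 9.11, below both exposed FVB/N arrays, and the naive TgS CPu arrays 9.47 and 9.68. Other probe sets of Kcnip1 exist, and that with the next highest signal fell after MPTP in the CPu too (-0.27, adjusted p = 0.0267).

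The strain difference was unequal between regions in 2 genes for TgS against FVB/N (beside 2.35% of all probe sets) and 2 for TgR against FVB/N (0.835%). For TgS these were Kcne4 (0.38 ± 0.08, adjusted p = 0.0158), an inhibitory Kcne peptide, and Kcnj2 (-0.51 ± 0.12, adjusted p = 0.0429), a strong inward rectifier. Kcne4 read 7.33 and 7.43 in exposed TgS PFC arrays, against 6.97 and 6.97 in exposed FVB/N PFC arrays. Kcnj2 read 5.15 and 4.65 in the naive TgS CPu arrays, against 4.22 and 4.35 in naive FVB/N CPu arrays and 4.28 to 4.59 in exposed CPu arrays. For TgR the genes were Kcnip1 and Kcnj6 (0.37 ± 0.08, adjusted p = 0.0468).

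**Figure D5:**
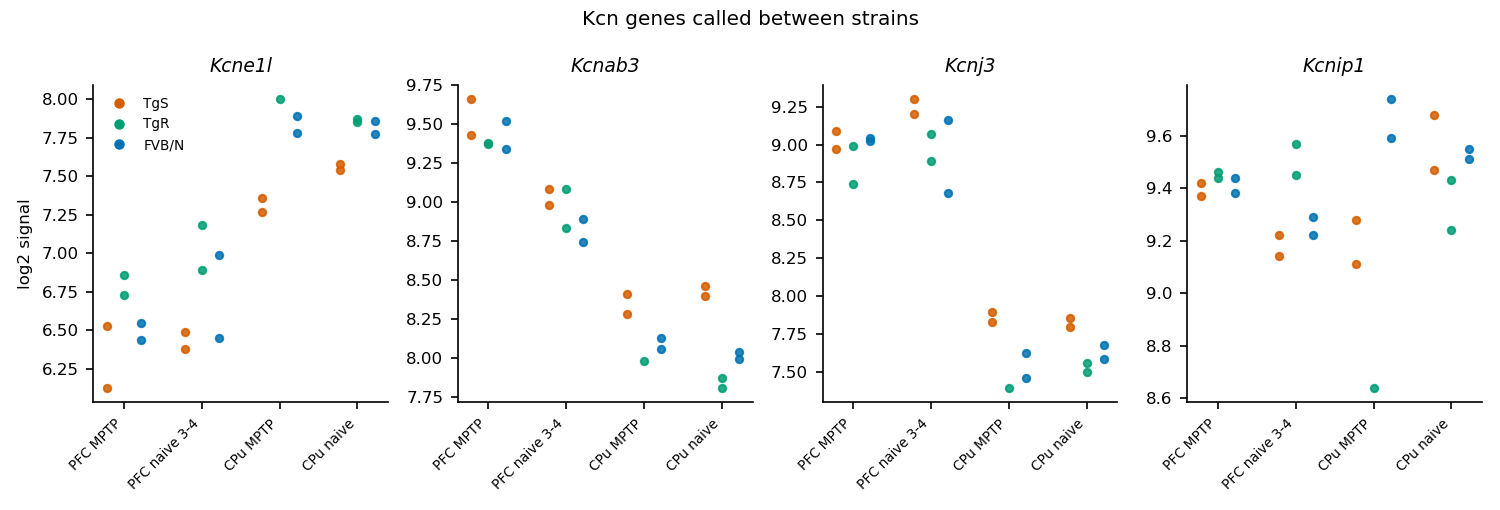
Log2 signal of Kcne1l, Kcnab3, Kcnj3 and Kcnip1 in the 23 arrays of the model, by region and treatment, coloured by strain. TgS lies lowest for Kcne1l and highest for Kcnab3 in the CPu, and the only exposed TgR CPu array has the lowest Kcnip1 (8.64).

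Proteins that work with these channels but carry other symbols were listed beside them. Of 20 measured of 29 listed, the naive PFC had 10 higher and 7 lower (beside 53.2% of all probe sets called), 6 rose and 3 fell after MPTP in the PFC (beside 50.5%), and 2 rose and 1 fell after MPTP in the CPu (beside 4.54%). Cntnap2, which clusters Kv channels along axons, was lower in the PFC (-0.63 ± 0.04, adjusted p = 9.55e-10), as was Dpp6, an extra subunit of Kcnd channels (-0.31 ± 0.05, adjusted p = 2.39e-05). Abcc8 was higher in the PFC (0.64 ± 0.07, adjusted p = 8.26e-07) and rose after MPTP in the CPu (0.34 ± 0.07, adjusted p = 0.0171). Of 24 measured of 32 listed voltage-gated sodium and calcium channel genes, the naive PFC had 9 higher and 9 lower (beside 53.2% of all probe sets called), 9 rose and 2 fell after MPTP in the PFC (beside 50.5%), and the lowest adjusted p of limma after MPTP in the CPu was 0.159, for Cacna2d1.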

How the data were processed

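RNA of 29 tissue samples was measured on Affymetrix arrays. The deposited values are log2 signals per probe set, and the submitters' processing notes name the Affymetrix programs Expression Console and Power Tools, and RMA, a method that corrects background, normalises between arrays and summarises probes. No version is given in the sources used here. The deposited log2 values were used as they stand. Of 22690 probe sets, 64 controls were left out, which leaves 22626. The platform annotation gives 20380 of them a single symbol, 691 several and 1555 none.

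Array groups were taken from the sample labels. A cell-means model with 12 group means was fitted to 23 arrays with limma 3.58.1 (R 4.3.3), with 11 residual degrees of freedom (16.3 after moderation). Tests were two-sided, with Benjamini-Hochberg adjustment over all 22626 probe sets within each of 32 comparisons and a threshold of 0.05. The script was tested on simulated data. The number of arrays, 2 per group (1 in 1 group), limits the precision. The genes and lists were chosen with earlier results of these data known. Named genes were the 8 largest called differences each way in the naive region comparison, up to 6 each way in the MPTP and strain comparisons (or the 3 of smallest p where fewer than 3 were called), the gene of smallest p of each family in the naive region comparison, and Kcne2, Kcnj8, Kcnj10, Kcnj13, Kcnj16 and Kcnk13. Other genes were named after their values were seen. Alternatives were other naive PFC arrays, all 29 arrays, quantile normalisation, a filter on low signals, other probe sets, a trended and robust variance, a replicate block, each region fitted alone, and each array left out in turn. Leaving out both naive TgS CPu arrays was added after seeing the data. Replicate numbers were not used as pairs in the model. Between strains of the same region and treatment, 10 correlations of same-numbered deviations ran from -0.359 to 0.154. These cannot show whether PFC and CPu arrays of the same number share animals, which was not examined.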

Additional observations from a re-analysis of the deposited data

Results flagged for a closer look

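A single array stood far from the rest of its region and treatment in 6 of 132 sets of arrays examined, where chance gives about 1 in 20. These were Kcnd2 in naive TgR CPu replicate 2 (11.65, next 11.47), Kcnip2 (9.89, next 10.1), Kcnj3 (8.74, next 8.97) and Kcns2 (5.95, next 6.42) in exposed TgR PFC replicate 2, Kcns1 in exposed TgS PFC replicate 2 (7.14, next 7.45) and Kcns1 in naive TgS PFC replicate 4 (7.58, next 7.26). Exposed TgR PFC replicate 2 was thus the lowest array for 3 genes.

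The MPTP difference was unequal between PFC and CPu, by limma's interaction test with Benjamini-Hochberg adjustment, for the following genes. The PFC minus CPu difference was 0.68 for Kcnip2 (adjusted p = 2.55e-05), 0.66 for Kcnh2 (0.000196), 0.47 for Kcnab3 (0.000542), 0.42 for Kcnip1 (0.00072), 0.38 for Kcnj11 (0.00655) and 0.35 for Kcnab2 (0.000625). It was -0.44 for Kcnj8 (0.00112), -0.35 for Kcnn4 (0.00321), -0.31 for Kcnh7 (0.00724), -0.30 for Kcnq5 (0.0381), -0.26 for Kcnmb2 (0.012) and -0.20 for Kcnd2 (0.0381). Kcnip1 also differed in its TgR minus FVB/N difference between regions (0.76) and in its MPTP difference in the CPu between TgR and FVB/N (-0.83); the group of exposed TgR CPu arrays holds 1 array. With naive PFC replicates 1 and 2 the MPTP gap between regions was -0.185 for Kcnh2, 0.14 for Kcnq5, 0.07 for Kcnab2 and -0.13 for Kcnmb2, none of them called, while the other 8 of these genes were called in the direction given above. In all, 14 of 45 such tests were called. The 45 were run only on genes already named for an MPTP or strain difference, which favours such calls. MPTP by region called 32.5% of all probe sets, so the count is no result about these genes.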

How the results depend on the processing

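Region calls moved little: leaving out each array in turn gave 41 to 44 genes in naive and 32 to 38 in exposed mice, and MPTP gave 29 to 35 in the PFC and 2 to 6 in the CPu (2 without naive FVB/N replicate 2, 6 without naive FVB/N replicate 1). TgS minus FVB/N ranged from 3 (without exposed FVB/N CPu replicate 1) to 10, TgR minus FVB/N from 0 (without the exposed TgR CPu array) to 2, TgS minus TgR from 5 to 12, MPTP by region from 18 to 25, MPTP by strain from 0 to 2 and strain by region from 1 to 5. Most counts in this section stand without the share of all probe sets. They therefore cannot show whether a change is particular to these genes. With naive PFC replicates 1 and 2 in place of 3 and 4, TgS minus FVB/N gave 11, TgR minus FVB/N 5, TgS minus TgR 13, MPTP by strain 14 and strain by region 17. All 29 arrays with 12 group means gave 0 for TgS minus FVB/N, 1 for TgS minus TgR, 7 for MPTP by region, 0 for MPTP by strain and 1 for strain by region. With a term for the array set these were 1, 3 and 1 for TgS minus FVB/N, TgS minus TgR and strain by region, and with 15 group means 4, 5 and 2. Each region fitted alone gave 0 for MPTP by strain and has no region comparison. A trended and robust variance gave 5 for MPTP in the CPu. Without both naive TgS CPu arrays, chosen after seeing the data, MPTP in the CPu gave 0, TgS minus FVB/N 2, TgR minus FVB/N 2, MPTP by region 13 and strain by region 2, and the naive region comparison 38 (19 higher, 19 lower). MPTP by region gave 29 with naive PFC replicates 1 and 2 (11 higher, 18 lower). Directions turned with these for Kcnh2 (0.18), Kcnn2 (-0.24) and Kcnk5 (0.19), each called, and for Kcnq5 (-0.03) and Kcnip4 (-0.07) between regions, for Kcnc1 (-0.17), Kcnh2 (-0.35), Kcna5 (-0.79) and Kcnq5 (0.20) after MPTP, Kcnab3 (-0.024) and Kcnip2 (-0.096) in TgS and Kcnip2 in TgR (-0.21). The array-set term takes replicates 1 and 2 as the naive PFC level. The same Kcnh2, Kcna5 and Kcnq5 values that it gave were therefore fixed in advance and are no further check. It gave -0.0225 for Kcnip2 in TgR, as did 12 group means, which gave -0.15 for Kcna5. A second probe set turned Kcnab3 (-0.20) and Kcnj6 (0.105, with 3 further probe sets at -0.33, -0.20 and -0.08) after MPTP in the PFC, Kcnab3 (-0.04) and Kcnip2 (-0.0475) in TgS and Kcnip2 in TgR (-0.0075). Leaving out each array in turn, Kcnip1 in TgR ran from -0.255 to 0.033 (0.033 without the exposed TgR CPu array). The cause was not tested. Of 1718 values of 52 named results, 1551 kept direction and side of the threshold, 142 lost the call, 5 gained it and 20 turned. The replicate block treats equal numbers as shared between groups, and the labels do not say that they share animals. With it, the counts were 44 and 37 between regions and 34 and 3 after MPTP. They were 6, 1 and 8 between strains and 23, 1 and 3 for the interactions.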
